A study of Mus musculus with 2 samples.

Results

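The 9 genes described here encode transcription factors of the mesenchyme that surrounds the developing pancreas and gives rise to the spleen and to parts of the stomach wall, namely *Tlx1*, *Nkx2-5*, *Nkx3-2*, *Barx1*, *Tcf21*, *Wt1*, *Nr5a1*, *Isl1* and *Meis1*. They were taken by name, and each was measured by 1 probe set that carries its symbol alone, which gave 9 of the 19938 genes with a value. Whole pancreata had been dissected at E15.5 from *Mafk*-Tg embryos and from WT embryos, both on an ICR background, and 1 array of *Mafk*-Tg and 1 array of WT were analysed. The *Mafk*-Tg embryos carry a FLAG-tagged mouse *Mafk* cDNA behind the rat insulin I promoter, a promoter of β-cells. The paper describes endocrine cells as of low abundance in the pancreas at this stage. The cells that express the transgene were not measured here. MAFK is a small MAF protein that lacks a transactivation domain and competes with large MAF proteins for their sites on DNA. The design gives 3 pancreata per genotype, and whether their RNA was pooled on each array is not stated in the sources used here.

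The spleen of the mouse arises in the mesenchyme beside the dorsal pancreatic bud and is carried along the tail of the pancreas, so that the rudiment lies against pancreatic tissue at this stage. Its formation needs a set of regulators in the mesenchyme. Embryos without *Tlx1*, *Nkx3-2*, *Tcf21* or *Wt1* fail to form a normal spleen, and *Nkx2-5* marks the same rudiment and the pyloric sphincter. Several of the genes have other sites of expression as well, as *Isl1* does in islet cells, *Wt1* in mesothelium and *Nr5a1* in adrenal gland and gonad.

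Array values are log2 signals, with a median of 6.01 in *Mafk*-Tg and 6.01 in WT over 35556 probe sets. A single array of each genotype gives no replicate error, so the values below are descriptions without a test, and their precision is limited by that number. *Mafk* itself had a log2 signal of 7.00 in *Mafk*-Tg and 6.75 in WT, which is 0.25 higher and less than 1.2-fold. *Xist*, the RNA of the inactive X chromosome, had 11.30 in *Mafk*-Tg and 4.40 in WT, and 3 Y-linked genes had 2.61 to 3.54 in *Mafk*-Tg and 7.46 to 8.29 in WT. Genotype and this split of sex-linked genes cannot be told apart. None of the 9 genes lies on the X or Y chromosome.

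Of the 9 genes, 4 were at least 1.2-fold lower in *Mafk*-Tg, 1 was at least 1.2-fold higher, and 4 lay within 1.2-fold. The lower ones were *Tlx1*, *Nkx2-5*, *Tcf21* and *Nr5a1*, and the higher one was *Isl1*. The authors give the same fold as their cutoff, but their list holds fewer probe sets than the genes past it here. The calls here are therefore not those of the authors. Over all 19938 genes, 10.5% were at least 1.2-fold lower in *Mafk*-Tg and 7.96% at least 1.2-fold higher. Among the 7955 genes with a mean log2 level in the range of the 9 genes, 6.79 to 9.76, the shares were 4.88% lower and 4.94% higher. In all, 8 of the 9 genes had a difference (log2 signal in *Mafk*-Tg minus that in WT) below 0, against 51.6% of all genes. At a cutoff of 1.5-fold, 0 of the 9 genes were lower and 0 higher, against 1.27% and 0.697% of all genes. The median difference of the 9 genes was -0.23, against -0.01 over all genes. In a whole tissue, fewer cells of a type and less RNA per cell cannot be told apart.

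**Figure D1:**
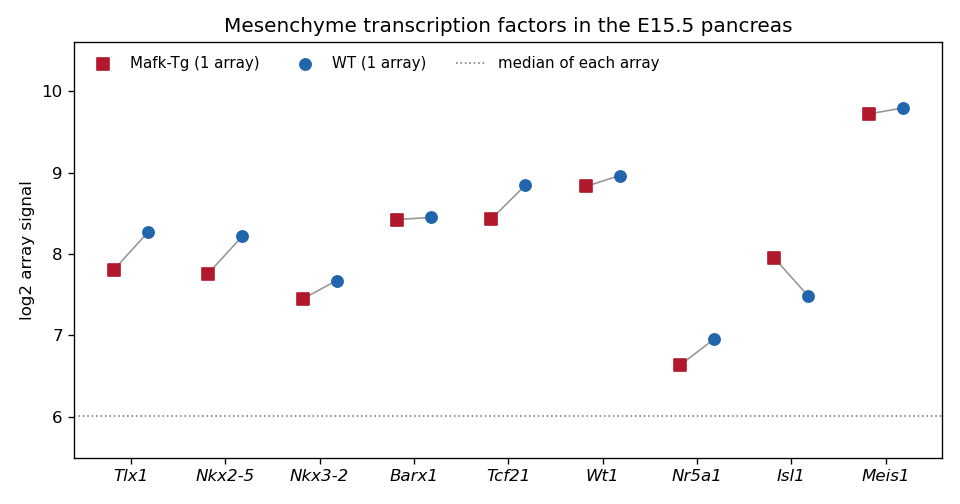
Log2 array signal of the 9 genes in *Mafk*-Tg (squares) and WT (circles), with 1 array per genotype, lines linking the pair of values and a dotted line at the median of the arrays, 6.01. In *Mafk*-Tg 8 of the 9 genes lie lower, *Tlx1*, *Nkx2-5*, *Tcf21* and *Nr5a1* by at least 1.2-fold, and *Isl1* is the 1 gene that lies higher.

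The sequences before the start sites of the 3 genes with the lowest differences, and of *Isl1* with its difference of opposite sign, are printed to show what these genes do and do not share there. Each runs over the 250 bases that end at the annotated start, from RefSeq on GRCm38.p6. Capitals mark the letters TGACAG, a core bound by MEIS proteins, and TGCTGA, part of the element bound by MAF proteins, on either strand.
*Tlx1*, chr19:45150465-45150714, plus strand: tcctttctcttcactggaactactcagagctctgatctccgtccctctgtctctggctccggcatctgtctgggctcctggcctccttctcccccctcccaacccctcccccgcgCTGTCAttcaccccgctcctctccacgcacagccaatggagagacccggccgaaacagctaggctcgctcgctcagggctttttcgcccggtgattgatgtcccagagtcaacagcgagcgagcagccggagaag
*Nkx2-5*, chr17:26841566-26841815, minus strand: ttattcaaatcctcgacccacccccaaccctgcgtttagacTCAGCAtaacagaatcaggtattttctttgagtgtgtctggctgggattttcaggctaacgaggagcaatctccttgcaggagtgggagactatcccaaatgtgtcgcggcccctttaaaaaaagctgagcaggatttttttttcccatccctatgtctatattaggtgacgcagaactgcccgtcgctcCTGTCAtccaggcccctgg
*Tcf21*, chr10:22820144-22820393, minus strand: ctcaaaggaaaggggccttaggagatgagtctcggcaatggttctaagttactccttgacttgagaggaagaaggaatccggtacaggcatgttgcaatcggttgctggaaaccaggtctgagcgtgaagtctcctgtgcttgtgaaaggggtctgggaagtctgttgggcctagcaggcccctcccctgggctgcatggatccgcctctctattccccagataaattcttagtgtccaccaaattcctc
*Isl1*, chr13:116309689-116309938, minus strand: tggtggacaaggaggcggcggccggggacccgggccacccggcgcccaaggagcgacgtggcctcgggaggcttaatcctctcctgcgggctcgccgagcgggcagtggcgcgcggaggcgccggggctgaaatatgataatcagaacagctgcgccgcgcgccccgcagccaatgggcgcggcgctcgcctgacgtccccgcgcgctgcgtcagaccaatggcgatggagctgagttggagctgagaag
TGACAG stood in reverse as CTGTCA at position -135 of *Tlx1* and at -19 of *Nkx2-5*, counted from the start site. The 250 bases of *Tcf21* and *Isl1* held neither TGACAG nor TGCTGA.

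Sequences were at hand for 7 of the 9 genes. TGACAG was present in 3 of these 7, *Tlx1*, *Nkx2-5* and *Nkx3-2*, against 15.9% of 32851 promoters of the same length. TGCTGA was present in 1 of the 7, in reverse at -209 of *Nkx2-5*, against 16.1% of all. AAGTG, the core of sites of NKX2-5 itself, was found in 1 of the 7, at -129 of *Nkx3-2*, against 40.7% of all. CAGCTG, an E-box of the kind that bHLH factors such as TCF21 bind, was found in 2 of the 7, at -246 of *Nkx3-2* and at -103 of *Isl1*, against 13.0% of all. In *Nkx3-2* the E-box shares its last 3 letters with the reversed MEIS core. The letters AAGGTCA, a site of NR5A1, were present in 0 of the 7, against 4.08% of all. The promoters also differed in base composition, with a GC content of 49.2% for *Nkx2-5*, 62.0% for *Tlx1* and 85.6% for *Barx1*. All 5 motifs were searched on both strands, and a match is a description of letters and not of binding.

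Among the homeobox genes of the spleen rudiment, *Tlx1*, whose loss leaves mice without a spleen, had a log2 signal of 7.81 in *Mafk*-Tg and 8.27 in WT. The difference of -0.46 is a 1.38-fold lower signal in *Mafk*-Tg. *Nkx2-5*, an NK homeobox gene best known from heart, had 7.76 in *Mafk*-Tg and 8.22 in WT, a difference of -0.46 and a 1.37-fold lower signal. Both genes were thus lower in *Mafk*-Tg by nearly the same amount. They were read on the same 2 arrays, so their values are not independent readings of the genotypes. Of the 7955 genes in the level range, 1.08% had a difference as low as that of *Tlx1* and 1.11% one as low as that of *Nkx2-5*.

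*Nkx3-2*, also called *Bapx1*, acts in axial skeleton and in the parting of spleen from pancreas. Its log2 signal was 7.45 in *Mafk*-Tg and 7.67 in WT, a difference of -0.23, which is 1.17-fold and within the cutoff. It was lower in *Mafk*-Tg, as were the other two spleen homeobox genes, and 7.18% of genes in the level range were as low.

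*Tcf21*, which encodes a bHLH factor of visceral mesenchyme in spleen, kidney and lung, had a log2 signal of 8.43 in *Mafk*-Tg and 8.84 in WT. Its difference was -0.42, a 1.33-fold lower signal, and 1.51% of genes in the level range were as low. *Wt1*, which encodes a zinc finger factor of mesothelium, kidney and gonad that also acts in the spleen rudiment, had 8.83 in *Mafk*-Tg and 8.96 in WT. The difference of -0.13 lay within the cutoff, and 19.3% of genes in the level range were as low. *Tcf21* and *Wt1* were both dimmer in *Mafk*-Tg, *Tcf21* past 1.2-fold and *Wt1* not.

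*Nr5a1*, the gene of the nuclear receptor SF-1, is best known from adrenal gland and gonad and is also expressed in vessels of the spleen. It was the dimmest of the 9 probe sets, with a log2 signal of 6.63 in *Mafk*-Tg and 6.95 in WT, 0.62 above the median of the *Mafk*-Tg array and 0.95 above that of the WT array. The difference was -0.32, a 1.25-fold lower signal, and 2.80% of genes in the level range were as low. *Nr5a1* sets the lower edge of that range, so the share is over genes as bright or brighter and not over genes of its own level. Of 10 measured genes of adrenal and gonad steroid cells, 9 lay below the median level of all probe sets, among them the steroid synthesis genes *Star*, with 4.92 in *Mafk*-Tg and 5.07 in WT, and *Cyp17a1*, with 4.42 in *Mafk*-Tg and 4.38 in WT. Of the 10, 2 were at least 1.2-fold lower and 3 higher, with a median difference of -0.05. The summed linear signal of the 10 was 349 in *Mafk*-Tg and 330.0 in WT. *Inha*, the 1 gene at or above the median level, had 7.28 in *Mafk*-Tg and 6.97 in WT. Steroid cell genes other than *Inha* were therefore dim in both arrays. Of the 10, 5 had a difference below 0, and the differences ran from -0.37 to 0.54. The part of adrenal or gonad cells in the value of *Nr5a1* was not tested.

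*Barx1* encodes a homeobox factor of stomach mesenchyme that in mouse limits Wnt signalling through secreted frizzled-related proteins. Its log2 signal was 8.42 in *Mafk*-Tg and 8.45 in WT, a difference of -0.03, and 44.9% of genes in the level range were as low. The 2 arrays were thus nearly level for this gene. The frizzled-related genes *Sfrp1* and *Sfrp2* had differences of -0.15 and 0.39, with 9.51 in *Mafk*-Tg and 9.66 in WT for *Sfrp1*, and 9.41 in *Mafk*-Tg and 9.02 in WT for *Sfrp2*. Of 6 genes listed for the mesenchyme of the pylorus, 0 were at least 1.2-fold lower and 1, *Sfrp2*, was higher, with a median of 0.06. Of the 6, 3 lay below the median level of all probe sets, *Six2*, *Gata3* and *Grem1*. *Sox9*, which the pancreatic epithelium also expresses, had 8.89 in *Mafk*-Tg and 8.74 in WT. *Six2*, which like *Nkx2-5* marks the pyloric sphincter, lay below the median level, with 5.31 in *Mafk*-Tg and 5.21 in WT.

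Stomach epithelium was read from 14 genes, of which 10 were dimmer than the median level. Of the 14, 2 were at least 1.2-fold lower and 3 higher, with a median difference of 0.04. *Cym*, which encodes the stomach protease chymosin, stood apart with 10.51 in *Mafk*-Tg and 7.17 in WT. *Cldn18*, which encodes a claudin of stomach and lung, had 7.40 in *Mafk*-Tg and 6.85 in WT. *Gkn1*, a defining gene of the gastric lining, had 5.08 in *Mafk*-Tg and 5.48 in WT. The part of stomach tissue in the values of *Barx1* and *Nkx2-5* was not tested.

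*Meis1* encodes a TALE homeobox factor that binds DNA together with PBX proteins and acts in many mesenchymal tissues and in blood stem cells. It was the brightest of the 9 probe sets, with a log2 signal of 9.72 in *Mafk*-Tg and 9.79 in WT. Its difference of -0.07 lay close to 0, and 32.7% of genes in the level range were as low.

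*Isl1*, which encodes a LIM homeobox factor of islet cells, motor and enteric neurons and early dorsal pancreatic mesenchyme, had a log2 signal of 7.95 in *Mafk*-Tg and 7.48 in WT. The difference of 0.47 is a 1.38-fold higher signal in *Mafk*-Tg, and 0.717% of genes in the level range were as high. It was the 1 member of the 9 that was brighter in *Mafk*-Tg. Of 14 islet endocrine genes, 7 were at least 1.2-fold higher and 2 lower, with a median of 0.26. *Chgb*, which encodes a granule protein, had 8.52 in *Mafk*-Tg and 7.79 in WT, and *Rfx6*, which encodes an endocrine transcription factor, had 7.68 in *Mafk*-Tg and 7.20 in WT. *Pyy* and *Ppy*, which encode islet peptides, had differences of 0.69 and 0.56. The 2 lower ones were *Ins2*, an insulin gene, with 8.40 in *Mafk*-Tg and 8.79 in WT, and the granule protein gene *Chga*, with 9.26 in *Mafk*-Tg and 9.58 in WT. The summed linear signal of the 14 genes was 9285 in *Mafk*-Tg and 7907 in WT.

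Of 7 measured genes of enteric neurons and glia, 3 were at least 1.2-fold higher and 0 lower, with a median of 0.12, a summed linear signal of 882 in *Mafk*-Tg and 742 in WT, and 4 of the 7 below the median level. *Ret*, the receptor of enteric neuron precursors, had 8.74 in *Mafk*-Tg and 8.34 in WT, while *Sox10*, a defining gene of enteric glia, had 6.09 in *Mafk*-Tg and 6.06 in WT. The other higher ones, *Th* and *Dbh*, had differences of 0.38 and 0.42 from values below the median level. The part of islet cells and neurons in the value of *Isl1* was not tested.

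**Figure D2:**
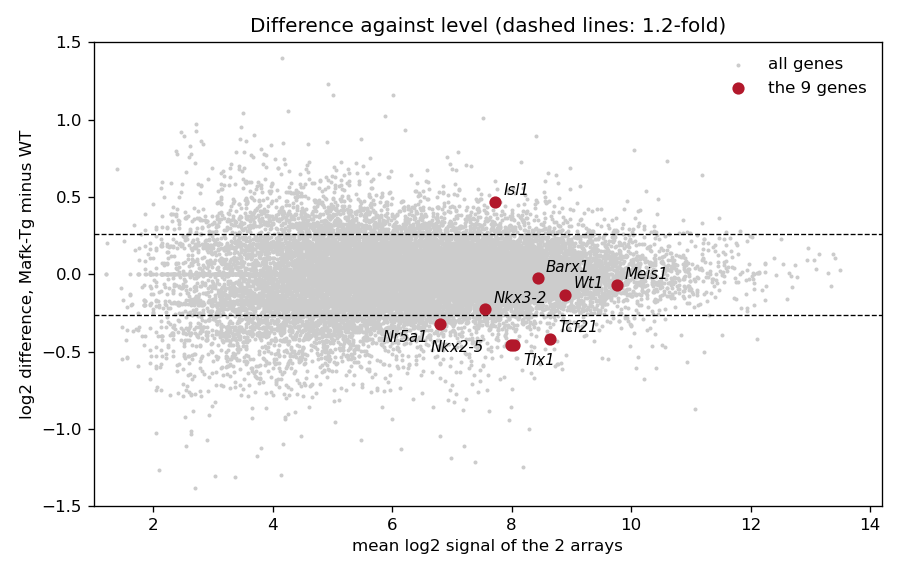
Log2 difference (*Mafk*-Tg minus WT) against the mean log2 signal of the 2 arrays for all genes (grey) and the 9 genes (red), with dashed lines at 1.2-fold and 9 of 19938 genes beyond the axes. *Tlx1* and *Nkx2-5* nearly coincide at -0.46, and *Isl1* lies at 0.47.

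The closest relatives of these genes were read beside them, since paralogs share a protein family but not a site of expression. Of 9 measured paralogs, 6 were dimmer than the median level of all probe sets. Of the 9, 1 was at least 1.2-fold lower in *Mafk*-Tg, 0 were higher, and their median difference was 0.02. *Tlx2*, a gene of enteric neurons, had a log2 signal of 5.48 in *Mafk*-Tg and 5.38 in WT. *Tlx3* had 5.15 in *Mafk*-Tg and 5.49 in WT, a difference of -0.35 between 2 dim values. *Nkx2-6* and *Barx2* had differences of -0.07 and -0.10, and *Msc*, the relative of *Tcf21*, had 0.20, all from values below the median level.

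Brighter relatives included *Nr5a2*, which encodes a nuclear receptor of acinar and liver cells and had 9.67 in *Mafk*-Tg and 9.51 in WT. Its difference of 0.15 had the opposite sign to that of *Nr5a1*. Of 8 measured acinar genes, 2 were at least 1.2-fold higher and 0 lower, with a median of 0.25. *Meis2* had 9.98 in *Mafk*-Tg and 9.95 in WT, a difference of 0.02, and *Meis3* had 6.27 in *Mafk*-Tg and 6.43 in WT, a difference of -0.16. *Isl2*, a motor neuron gene that was dim in both arrays, had 5.39 in *Mafk*-Tg and 5.19 in WT. Among the relatives, *Tlx3* alone passed the cutoff.

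**Figure D3:**
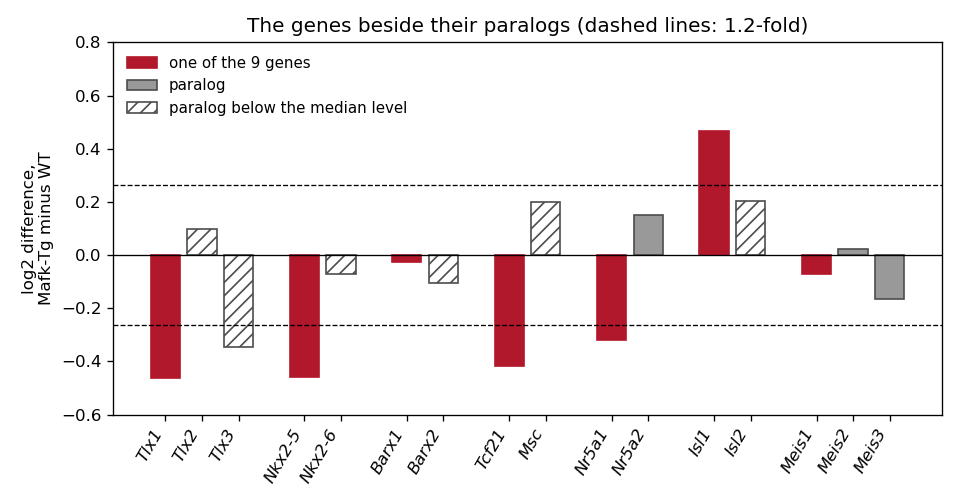
Log2 difference (*Mafk*-Tg minus WT) of 7 of the genes (red) and of their 9 measured paralogs (grey, or hatched where the mean level lay below the median of all probe sets), with dashed lines at 1.2-fold and 1 array per genotype. *Tlx3* at -0.35 is the 1 paralog past the cutoff.

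Other transcription factors of visceral and pancreatic mesenchyme had a median closer to 0. Of 18 measured, 1 was at least 1.2-fold lower in *Mafk*-Tg, 0 were higher, 13 had a difference below 0, and the median was -0.11. The 1 past the cutoff was *Nr2f2*, which encodes the nuclear receptor COUP-TFII of mesenchyme and veins, with 9.05 in *Mafk*-Tg and 9.33 in WT. *Nkx2-3*, an NK homeobox gene needed for the spleen and the gut wall in mouse, had 6.74 in *Mafk*-Tg and 6.95 in WT, a difference of -0.21. *Snai2* had -0.24, *Prrx1* -0.21, *Tbx3* -0.21 and *Osr1* -0.19. *Foxf1*, a forkhead gene of the splanchnic mesenchyme, had 8.17 in *Mafk*-Tg and 8.30 in WT, and *Hand2* had 7.12 in *Mafk*-Tg and 7.22 in WT. *Gata6*, which the epithelium also expresses, had 9.74 in *Mafk*-Tg and 9.64 in WT.

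Genes of fibroblasts and smooth muscle mark mesenchyme of any site. Of 13 such genes, 2 were at least 1.2-fold lower and 0 higher, 10 had a difference below 0 and 3 above, with a median of -0.11 and a summed linear signal of 14969 in *Mafk*-Tg and 16263 in WT. The lower ones were *Myl9*, which encodes a smooth muscle myosin light chain, with 8.03 in *Mafk*-Tg and 8.47 in WT, and *Pdgfrb*, a receptor of pericytes and fibroblasts, with 9.65 in *Mafk*-Tg and 10.0 in WT. *Vim* had a difference of -0.20 and *Acta2* -0.25. The cutoff that picked *Tlx1*, *Nkx2-5*, *Tcf21* and *Nr5a1* already places them below the median of this list. By difference, *Myl9* at -0.43 lay between *Nkx2-5* and *Tcf21*, and *Pdgfrb* at -0.35 between *Tcf21* and *Nr5a1*. The part of a smaller mesenchyme share in the values of *Tlx1*, *Nkx2-5*, *Tcf21* and *Nr5a1* was not tested.

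Mesothelium, the lining in which *Wt1* is expressed, was read from 8 genes, of which 0 were at least 1.2-fold lower or higher. Their median difference was -0.06, and their summed linear signal was 1690 in *Mafk*-Tg and 1787 in WT. *Upk3b*, a defining gene of mesothelium, had 9.21 in *Mafk*-Tg and 9.31 in WT, and *Gpm6a* had 7.95 in *Mafk*-Tg and 8.16 in WT. *Msln*, which encodes mesothelin, lay below the median level with 5.51 in *Mafk*-Tg and 5.43 in WT. Mesothelium genes, like *Wt1*, lay within the cutoff. Of 9 endothelial genes, 1 was at least 1.2-fold lower and 0 higher, with a median of -0.15.

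Genes of spleen stroma, the tissue that the rudiment gives rise to, were read from a list of 10. Several of them, such as *Vcam1*, *Icam1* and *Cxcl12*, are not particular to the spleen, so the list does not read spleen tissue alone. Of the 10, 2 were at least 1.2-fold lower in *Mafk*-Tg and 0 higher, 9 had a difference below 0, and the median was -0.21. *Cxcl13*, which encodes a chemokine that draws B-cells, had a log2 signal of 9.83 in *Mafk*-Tg and 10.17 in WT, a difference of -0.34. *Ccl19*, which encodes a chemokine of lymphoid stroma, had 5.95 in *Mafk*-Tg and 6.33 in WT, a difference of -0.38 close to the median level. *Cxcl12* had -0.26 and *Tnfsf11* -0.23. The summed linear signal of the 10 genes was 2036 in *Mafk*-Tg and 2440 in WT. Each of the 10 had a smaller difference in size than *Tlx1* and *Nkx2-5*. That comparison is not an even one, since *Tlx1* and *Nkx2-5* are the lowest of the 9 genes and *Ccl19* is a mean of 5 probe sets. The part of spleen stroma in the values of *Tlx1* and *Nkx2-5* was not tested.

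Genes of blood cells, which the fetal spleen also holds, were dimmer in *Mafk*-Tg, with lower medians than that of the 9 genes. Of 15 leukocyte genes, 15 were at least 1.2-fold lower, with a median of -0.63 and a summed linear signal of 4187 in *Mafk*-Tg and 6935 in WT. *Ctsg* and *Elane*, which encode granule proteases of myeloid cells, had differences of -1.25 and -0.88. Of 11 erythroid genes, 9 were at least 1.2-fold lower and 0 higher, with a median of -0.52 and a summed linear signal of 2456 in *Mafk*-Tg and 3413 in WT, and *Car1* and *Rhag* had differences of -1.19 and -1.11. Of 10 hepatocyte genes, 7 were at least 1.2-fold lower and 1 higher, with a median of -0.51 and a summed linear signal of 4326 in *Mafk*-Tg and 5323 in WT. *Alb* had 10.66 in *Mafk*-Tg and 11.23 in WT. The 1 higher hepatocyte gene was *Ttr*, which encodes transthyretin and is also expressed in islet cells, with 10.56 in *Mafk*-Tg and 10.29 in WT. The part of blood and liver cells in the values of *Tlx1*, *Nkx2-5* and *Tcf21* was not tested.

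**Figure D4:**
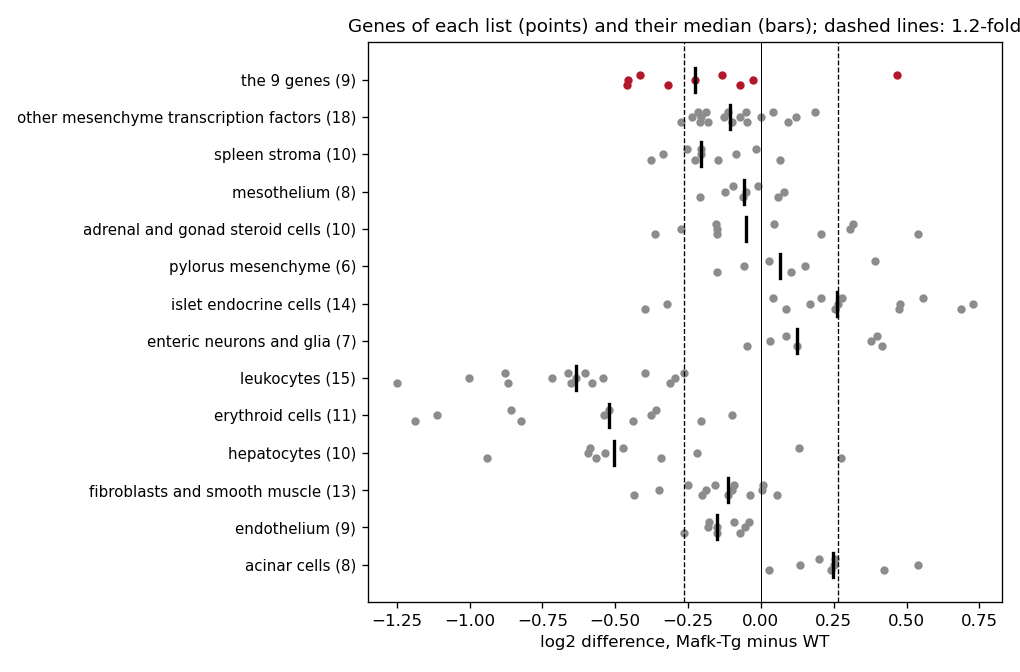
Points give the log2 difference (*Mafk*-Tg minus WT) of single genes and bars the median, for the 9 genes and 13 other lists, with the number measured in parentheses, dashed lines at 1.2-fold and 1 array per genotype. The 9 genes have a median of -0.23, spleen stroma -0.21, fibroblasts and smooth muscle -0.11 and leukocytes -0.63.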

How the data were processed

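RNA of whole E15.5 pancreata had been hybridised to Affymetrix MoGene-1_0-st-v1 arrays, of which 1 *Mafk*-Tg and 1 WT array were used. The deposited values are on the log2 scale, after normalization and probe set summarization by the authors in Affymetrix Expression Console (version and algorithm not given in the sources used here). Of 35556 probe sets, 21789 carry 1 gene symbol in the platform table, and their values were averaged per gene. Each difference is *Mafk*-Tg minus WT, and the cutoff was 1.2-fold, 0.26 on the log2 scale. Beside the 9 genes, other mesenchyme factors and paralogs were named freely, and from each remaining list up to 4 genes with the largest differences at or above the median level, 6.00, and defining genes that were dim. *Ins2*, *Chga*, *Ttr*, *Th* and *Dbh* fall outside this rule and were chosen after seeing their values. The genes and lists were chosen with earlier results of these data known. Linear signal is 2 raised to the log2 value. Scaling was tested on simulated data. Alternatives were equal medians, quantile normalization, loess (span 0.3), other uses of probe sets, a 1.5-fold cutoff and smaller sets of the 9 genes. Software was Python 3.11.15 with matplotlib 3.10.9, statsmodels 0.14.6, pandas 2.3.3 and numpy 2.4.6.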

Additional observations from a re-analysis of the deposited data

How the results depend on the processing

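The 4 lower genes and 1 higher gene kept their number under quantile normalization, equal medians and loess scaling. The 27 values of single genes under these scalings stayed within 0.15 of their main value, the robust SD over genes in the level range. The deposited arrays were already normalized, with medians of 6.01 in *Mafk*-Tg and 6.01 in WT, so these scalings had little to change. The choice among probe sets could change nothing, since each gene has 1 probe set. At a 1.5-fold cutoff, 0 genes were lower and 0 higher. Without *Isl1*, *Wt1* and *Meis1*, 4 were lower and 0 higher, and the median difference was -0.37. This follows from the choice of genes removed. *Isl1* is the higher one, and *Wt1* and *Meis1* had differences of -0.13 and -0.07. *Nr5a1*, which also has other sites of expression, was kept. Among the other lists, the leukocyte genes past 1.2-fold numbered 14 under quantile normalization and loess, and the islet genes that were higher numbered 6 under equal medians. The lower stomach epithelium genes numbered 1 under quantile normalization and loess, and the higher ones 4 under loess. The lower steroid cell genes numbered 1 under loess, and the higher hepatocyte genes 0 under quantile normalization. No paired analysis was possible because each genotype has 1 array, and no replicate could be left out.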
